A study of Mus musculus with 7 samples.

Results

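Kcnj11, Abcc8 and Trpm5 are genes for ion channels that set the electrical activity of the pancreatic beta cell. They were chosen by name, by matching the Ensembl IDs of an islet count table to annotated genes of the mouse genome build mm10, and they are 3 of the 48440 genes in that table. All 3 had enough counts to pass the low-count filter, which left 4218 genes for testing.

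The islets came from NOD.hALOX12 mice, nonobese diabetic mice in which human ALOX12 takes the place of mouse Alox15. Every mouse of both groups carried the replacement, which left the upstream regulatory region of the mouse gene in place. The mice were dosed over 4 weeks, from 6 to 10 weeks of age, with vehicle or with 30 mg/kg of VLX-1005, an inhibitor of human 12-lipoxygenase. By the study's account the mice were female and prediabetic, dosing was oral, and islets were picked by hand after collagenase digestion and kept overnight in culture. Sequencing covered 4 vehicle libraries and 3 VLX-1005 libraries, and no wild-type group is in the comparison. The labels number the libraries within each group without saying that each is a separate animal, so p-values measure the spread between these libraries, which may be technical.

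An ATP-sensitive potassium (K-ATP) channel of the beta cell is built from the pore subunit Kir6.2, encoded by Kcnj11, and the sulfonylurea receptor SUR1, encoded by Abcc8. When glucose is metabolised, ATP closes this channel, the membrane depolarises, voltage-gated calcium channels open and insulin granules fuse with the membrane. SUR1 is the target of the sulfonylurea drugs, and mutations in either subunit gene cause neonatal diabetes or congenital hyperinsulinism in people. Trpm5 encodes a cation channel that calcium opens and that carries sodium into the cell. It is known from taste receptor cells, from tuft cells of epithelia and from beta cells, where it adds to depolarisation.

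The libraries held between 1024586 and 1430785 counts. A count of 0 allowed up to 3 counts, or 2.10 to 2.93 CPM (counts scaled by library size), and such limits cover counting error only. Genes with an exon opposite an exon of another gene on the other strand made up 17.5% of the table and took 95.7% to 96.3% of the counts of each library. The library kit was strand-specific, but the strand setting of the counting is not given in the sources used here. Therefore reads of a gene and of a gene overlapping it on the other strand cannot be told apart, and the values of any gene, the 3 channel genes included, may hold reads of the other strand of its own locus. Of the 4218 genes tested, 100 (2.37%) passed an adjusted p of 0.05 in edgeR's quasi-likelihood test with Benjamini-Hochberg adjustment, 99 of them (2.35%) higher with VLX-1005 and 1 (0.0237%) lower. The number of such genes moved between 0 and 263 with the processing, and 759 genes (18.0%) had an unadjusted p under 0.05. The share of counts on ribosomal RNA genes was 1.69% to 2.11% in the vehicle libraries and 2.15% to 3.14% in the VLX-1005 libraries. These ranges did not overlap, so a fit with this share as covariate cannot fully separate it from treatment. Levels are CPM scaled by trimmed mean of M values (TMM) factors, as mean ± SD. Log2 differences are fitted by edgeR, ± SE, and are negative where VLX-1005 was lower.

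None of the 3 channel genes passed the edgeR test, against the background of 2.37%, none had an unadjusted p under 0.05, and none was called with DESeq2. In none of them did the vehicle and VLX-1005 libraries separate, whereas 17.8% of all genes tested had groups that did not overlap (9.46% higher and 8.32% lower with VLX-1005). Each fitted difference was below 0, the size being -0.21 on the log2 scale for Kcnj11, -0.34 for Abcc8 and -0.09 for Trpm5. Over all genes tested the median log2 fold change was -0.01, and 50.9% of genes lay below 0.

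**Figure D1:**
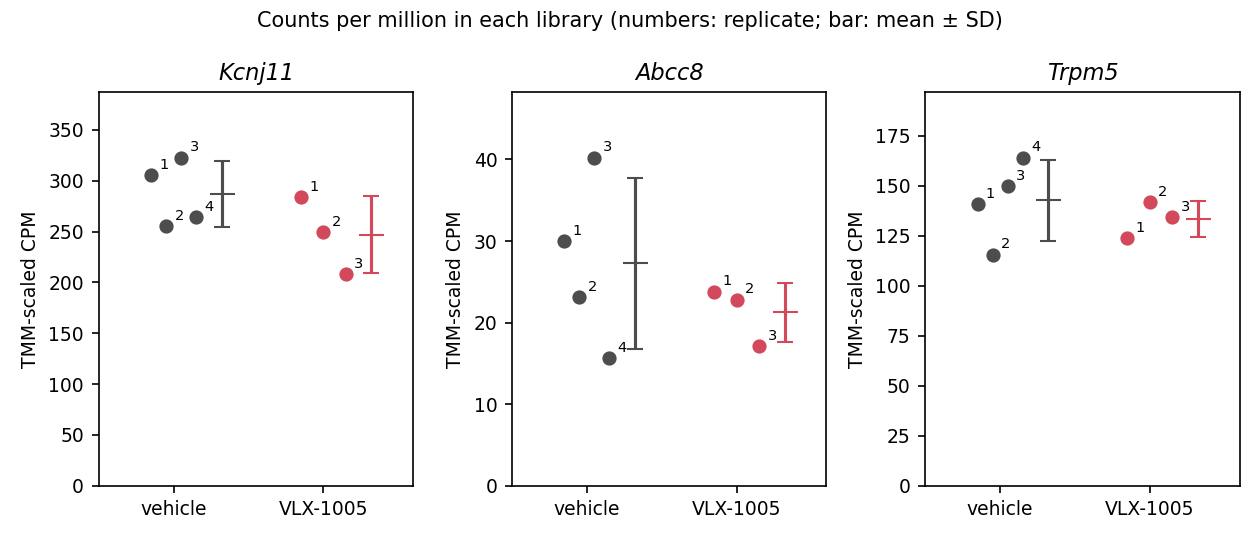
TMM-scaled CPM of Kcnj11, Abcc8 and Trpm5 in each library, with vehicle (n = 4) and VLX-1005 (n = 3) side by side on a linear axis that starts at 0. Points are libraries with their replicate numbers and bars give the mean ± SD; the groups overlap in every panel, and the lowest Kcnj11 value, 208 CPM, is VLX-1005 replicate 3.

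Kcnj11 (ENSMUSG00000096146.2), the pore of the K-ATP channel, lies on the minus strand at chr7:46093953-46100764. Its longest coding transcript has 1 exon of 3142 bp. It was counted 366, 331, 353 and 338 times in vehicle replicates 1 to 4, and 417, 262 and 268 times in VLX-1005 replicates 1 to 3. Scaled to library size, these were 305, 255, 323 and 264 CPM with vehicle and 284, 249 and 208 CPM with VLX-1005. Vehicle replicate 3 was highest and VLX-1005 replicate 3 lowest, and VLX-1005 replicate 1 lay above 2 of the 4 vehicle libraries. Group means for Kcnj11 were 286.8 ± 32.4 CPM (SD, n = 4) and 247 ± 37.7 CPM (SD, n = 3). The Kcnj11 difference of -0.21 ± 0.15 had a 95% interval of -0.53 to 0.11, or a fold of 0.865 (0.692 to 1.08), with an adjusted p of 0.483 by edgeR's quasi-likelihood test. Neither a decrease of Kcnj11 to 0.692 times the vehicle level nor no change at all lay outside that interval. Between vehicle libraries the Kcnj11 level varied by 11.3% (coefficient of variation), where counting alone would give 5.37%.

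Markers of islet cells were low in the library with the lowest Kcnj11 level, VLX-1005 replicate 3. The summed level of the 10 beta cell markers was 254 to 347 CPM with vehicle, and 302, 294 and 169 CPM in VLX-1005 replicates 1 to 3. The same library was lowest for the 5 alpha cell markers, at 104 CPM against 107 to 236 CPM in the others, and for the 4 delta and PP cell markers, at 20.99 CPM against 33.6 to 53.0 CPM. Its low marker level was not limited to the beta cell list, but the delta and PP value rests on 27 counts. VLX-1005 replicate 2, at 107 CPM, was nearly as low for the alpha cell markers, with beta cell markers inside the vehicle range. Without VLX-1005 replicate 3 the Kcnj11 difference was -0.11, and without each other library in turn it lay between -0.33 and that value. In bulk islets fewer cells of a type and less RNA per cell cannot be told apart, and the part of marker levels in the Kcnj11 values was not tested.

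Abcc8 (ENSMUSG00000040136.10), the sulfonylurea receptor SUR1, lies on the same strand at chr7:46104523-46180033. Its start of transcription is at the upper end, and its lower end is 3758 bp from Kcnj11. The longest coding transcript has 39 exons and 4877 bp. It was counted 36, 30, 44 and 20 times in the vehicle libraries and 35, 24 and 22 times in the VLX-1005 libraries. These are 30.0, 23.1, 40.2 and 15.6 CPM with vehicle and 23.8, 22.8 and 17.1 CPM with VLX-1005. Both the highest and the lowest library were vehicle, replicates 3 and 4, so that the VLX-1005 libraries lay within the vehicle range. The Abcc8 means were 27.3 ± 10.5 CPM (SD, n = 4) with vehicle and 21.2 ± 3.62 CPM (SD, n = 3) with VLX-1005. Its difference of -0.34 ± 0.34 had a 95% interval of -1.08 to 0.39, or a fold of 0.788 (0.473 to 1.31), with an adjusted p of 0.622 in the edgeR quasi-likelihood test.

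Abcc8 varied between vehicle libraries by more than counting error. The exact (Clopper-Pearson) 95% interval for vehicle replicate 4 was 9.32 to 23.6 CPM and that for vehicle replicate 3 was 27.8 to 51.3 CPM, both on library totals without TMM factors. These intervals do not meet, and the coefficient of variation of Abcc8 among vehicle libraries was 38.4%, against 17.5% from counting alone. Leaving out vehicle replicate 3 brought the Abcc8 difference to -0.10, and leaving out each other library in turn gave values down to -0.53.

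The subunits of the channel assemble in equal numbers as proteins, which sets no expected value for a ratio of read counts. Their count ratio within a library was used because it needs no scaling between libraries. The Kcnj11 to Abcc8 count ratio was 10.2, 11.03, 8.02 and 16.9 in vehicle replicates 1 to 4, and 11.9, 10.9 and 12.2 in VLX-1005 replicates 1 to 3. The VLX-1005 ratios lay within the vehicle range, whose ends were set by replicates 3 and 4. Means of the ratio were 11.5 ± 3.797 (SD, n = 4) and 11.7 ± 0.667 (SD, n = 3). On the log2 scale, with 0.5 added to each count, the groups differed by 0.07 (p = 0.743, two-sided exact permutation test over 35 splits, smallest possible p 0.0286). Without vehicle replicate 3 this difference turned to -0.09, and without vehicle replicate 4 it was 0.26.

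Kcnj11 had more counts than any annotated neighbour of the adjacent pair on either strand. No GENCODE or RefSeq gene besides itself overlaps the span of Kcnj11 on either strand. Which strand its counts came from is not known. Within the span of Abcc8 the annotation places the antisense transcript Gm45486 on the plus strand at chr7:46123352-46130568. Its 3 exons lie between exons of Abcc8, the nearest at 409 bp, and share 0 bp with them. Gm45486 was counted 7, 12, 7 and 2 times with vehicle and 5, 0 and 8 times with VLX-1005, too few for the test. Vehicle replicate 4, lowest for Abcc8, was also the lowest vehicle library for Gm45486, at 2 counts. The highest libraries differed, with vehicle replicate 2 for Gm45486 and vehicle replicate 3 for Abcc8. The lowest of all libraries for Gm45486 was VLX-1005 replicate 2, at 0 counts. A second transcript within Abcc8, Gm45487 on its own strand, had 5 counts in all libraries together.

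Outside the pair, the nearest gene on the plus strand beyond Kcnj11 is Nomo1, at 9740 bp, with 31 counts in all. On the minus strand, Gm18706 lies 991 bp from Kcnj11 and had 0 counts in all 7 libraries. Upstream of Abcc8, the minus-strand gene Ush1c, encoding the scaffold protein harmonin, had 9 counts with vehicle and 0 with VLX-1005. Opposite Ush1c lies Gm9860 on the plus strand, sharing 120 bp of exon with it. Gm9860 was counted 32, 40, 34 and 24 times with vehicle and 33, 11 and 23 times with VLX-1005. The VLX-1005 libraries overlapped the vehicle libraries, and the log2 difference of Gm9860 was -0.63 ± 0.33 (adjusted p = 0.333, edgeR). Over all libraries Kcnj11 had 2335 counts, Abcc8 211 and Gm9860, the most counted of these neighbours, 197. In RefSeq (assembly GRCm38.p6) one more transcript, the long noncoding RNA Gm51481, spans chr7:46104192-46106030 and covers the 3′ end of Abcc8. It was not analysed here.

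**Figure D2:**
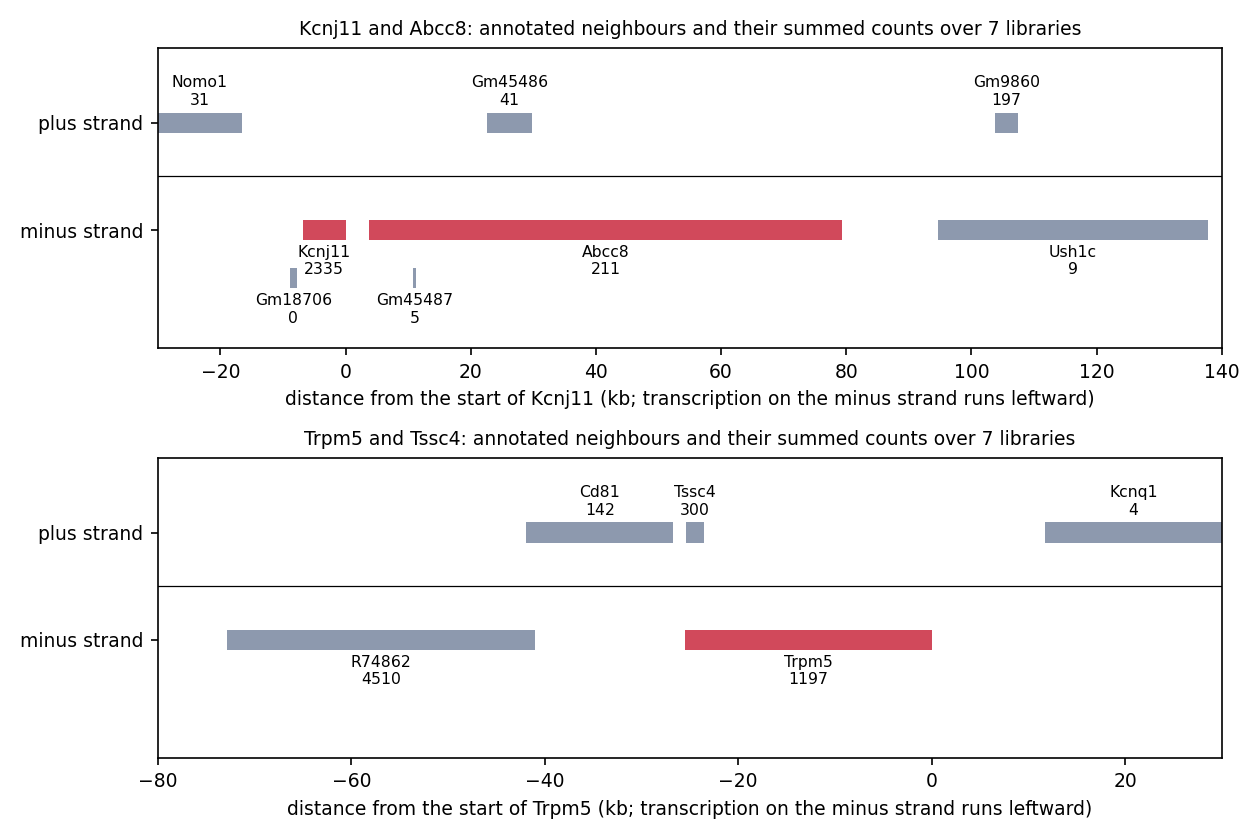
Annotated genes around Kcnj11 and Abcc8 (top) and around Trpm5 (bottom), drawn to scale by distance in kb from the start of Kcnj11 or Trpm5, plus strand above and minus strand below. Numbers are counts summed over 7 libraries, and genes longer than the window are cut at its edge; Kcnj11 carries 2335 counts, Abcc8 211 and Gm45486 41, and Trpm5 carries 1197 against 300 for Tssc4.

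Trpm5 (ENSMUSG00000009246.14) lies farther along the same chromosome, on the minus strand at chr7:143069153-143094642. Its longest coding transcript has 25 exons, 24 of them with coding sequence, and 4123 bp. At the 3′ end of Trpm5, on the plus strand, sits Tssc4 (ENSMUSG00000045752.13, chr7:143069249-143071093), which encodes a protein of the splicing machinery. The exons of both genes overlap over 220 bp in 2 stretches, of 217 bp and 3 bp. These make up 3.44% of the exon sequence of Trpm5 and 11.9% of that of Tssc4, and 2 of the 8 annotated Trpm5 transcripts have an exon there.

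Within the longer stretch, one of the shorter Trpm5 transcripts ends its coding sequence. The 30 bases at chr7:143069308-143069337 are shown as each gene reads them, because a fragment from here belongs to one gene or the other by its strand alone. Capitals mark the stop codon of Trpm5 and, in the Tssc4 reading, its complement. Both are from the GENCODE M21 transcripts on mm10, 5′ to 3′.
Trpm5 strand: ttcccgcctaatgtcagccgggacttgTAA
Tssc4 strand: TTAcaagtcccggctgacattaggcgggaa

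Trpm5 was counted 169, 150, 164 and 210 times in the vehicle libraries and 182, 149 and 173 times in the VLX-1005 libraries. In CPM these values were 141, 116, 149.9 and 164 with vehicle and 124, 142 and 134 with VLX-1005. The VLX-1005 libraries all fell between the lowest vehicle library, replicate 2, and the highest, replicate 4. Group means of Trpm5 were 143 ± 20.4 CPM (SD, n = 4) and 133 ± 9.01 CPM (SD, n = 3). The difference of -0.09 ± 0.16 had a 95% interval of -0.45 to 0.26, or a fold of 0.937 (0.733 to 1.197), with an adjusted p of 0.805 by edgeR. Trpm5 varied by 14.3% among vehicle libraries, against 7.60% from counting.

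Tssc4 was counted 45, 31, 62 and 40 times with vehicle and 50, 34 and 38 times with VLX-1005. Its order over the libraries was not that of Trpm5: vehicle replicate 3 was highest for Tssc4 and replicate 4 for Trpm5. The log2 difference of Tssc4 was -0.21 ± 0.30 (adjusted p = 0.754, edgeR). The Trpm5 to Tssc4 count ratio, chosen after seeing the data, was 3.76, 4.84, 2.65 and 5.25 with vehicle and 3.64, 4.38 and 4.55 with VLX-1005. Here too the VLX-1005 ratios lay within the vehicle range, with means of 4.12 ± 1.17 (SD, n = 4) and 4.19 ± 0.485 (SD, n = 3). The ratio differed by 0.07 on the log2 scale (p = 0.857, two-sided exact permutation test), and by -0.13 without vehicle replicate 3.

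Beyond the overlap, Cd81, the gene of a tetraspanin of the cell surface, ends 1218 bp from Trpm5 on the plus strand and had 142 counts in all. R74862, on the minus strand 15466 bp away and opposite Cd81 over 104 bp, was the most counted neighbour. Its counts were 544, 684, 506 and 620 in the vehicle libraries and 664, 650 and 842 in the treated ones, with a log2 difference of 0.26 ± 0.14 (adjusted p = 0.348, edgeR). On the other side of Trpm5, Kcnq1, a voltage-gated potassium channel, had 4 counts, and Gm28821, 40388 bp away, had 0 in all 7 libraries.

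Tuft cells are the other known source of Trpm5 in the pancreas. Of the 8 tuft cell markers, 5 were at 0 in every library, including Pou2f3, the transcription factor of the lineage, and Dclk1. The 8 markers summed to 23.4 to 32.8 CPM with vehicle and 21.9 to 27.9 CPM with VLX-1005. Most of that was Tas1r3, a taste receptor subunit whose exons lie opposite Dvl1. Vehicle replicate 4 was highest for both the tuft sum and Trpm5, and the part of these markers in the Trpm5 level was not tested.

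Per kb of exon the order of levels was Kcnj11, Trpm5, Abcc8. Over all 7 libraries Kcnj11 was at 73.4 ± 10.4 CPM per kb (SD, n = 7), Trpm5 at 21.7 ± 2.52 and Abcc8 at 3.05 ± 1.03. The ranges of the 3 genes did not meet: 56.7 to 87.8 for Kcnj11, 18.1 to 25.6 for Trpm5 and 1.93 to 4.97 for Abcc8, all in CPM per kb. As counted, Kcnj11 stood 24.1 times above Abcc8 per kb and 3.39 times above Trpm5. With the strand of the counts unknown, these ratios compare what was counted at each gene and need not be ratios of the channel messenger RNAs. With the longest coding transcript as the length, the levels were 85.9 ± 12.1, 33.6 ± 3.91 and 5.06 ± 1.71 CPM per kb, in the same order. Tssc4, at 19.0 ± 5.65 CPM per kb, overlapped the range of Trpm5, and Gm45486, at 4.21 ± 2.87, overlapped that of Abcc8. Ins1, at 78.3 ± 17.3 CPM per kb, overlapped Kcnj11.

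**Figure D3:**
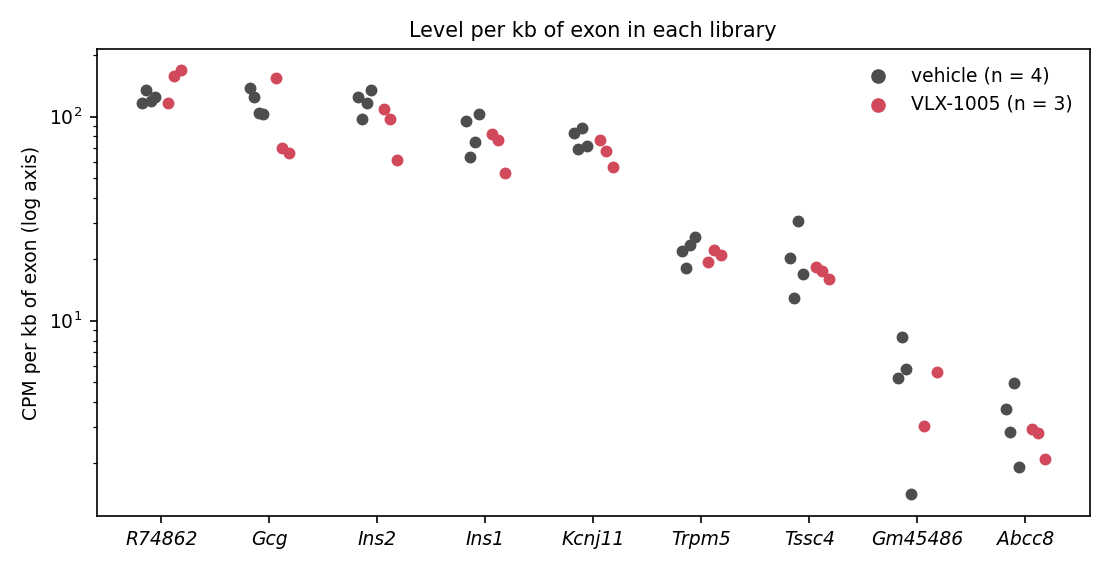
TMM-scaled CPM per kb of exon in each library for the channel genes, the neighbours R74862, Tssc4 and Gm45486 and the hormone genes Ins1, Ins2 and Gcg, on a log axis; points are libraries of vehicle (n = 4) and VLX-1005 (n = 3). The value of 0 for Gm45486 in VLX-1005 replicate 2 cannot be drawn on this axis; Kcnj11 overlaps Ins1, and Abcc8, at 1.93 to 4.97 CPM per kb, has the lowest mean but overlaps Gm45486, which has the lowest single libraries.

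Among the 16433 protein-coding genes that have no exon opposite another gene, Kcnj11 was 10th by level per kb, and Abcc8 was 485th. In the same class the insulin gene Ins2 was 6th and the glucagon gene Gcg 5th. A gene of this class had a median of 0.111 CPM, and 7682 of them were at 0 in every library. Trpm5 belongs to the class with an exon on the other strand, 5250 protein-coding genes with a median of 2.66 CPM, where it was 735th per kb. Among all 21683 protein-coding genes, Kcnj11 was 314th per kb, Trpm5 792nd, Abcc8 2079th, Ins2 227th and Gcg 221st.

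As counted, the hormone genes that define the tissue were present but low. Because the strand of the counts is unknown, these values need not be levels of the hormone messenger RNAs. Ins2 was at 164, 128, 154 and 177 CPM with vehicle and 143, 128 and 80.8 CPM with VLX-1005, with a log2 difference of -0.41 ± 0.21 (adjusted p = 0.325, edgeR). As with Kcnj11, the lowest library for Ins2 was VLX-1005 replicate 3. Gcg, the alpha cell hormone gene, was at 206, 186, 156 and 154 CPM with vehicle and 231, 105 and 99.5 CPM with VLX-1005, where replicate 1 was the highest of all libraries and the other 2 the lowest. Its log2 difference of -0.26 ± 0.28 (adjusted p = 0.648, edgeR) was -0.78 without VLX-1005 replicate 1 (adjusted p = 0.0573), -0.08 without replicate 2 and -0.06 without replicate 3. Actb, the cytoskeletal actin used as a reference in most tissues, had 18 counts with vehicle and 24 with VLX-1005, 20 of the latter in replicate 2, and was not tested.

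Markers of the other cell types that islets can hold were counted over their whole lists. Acinar markers summed to 28.9 to 94.2 CPM with vehicle and 29.3 to 110 CPM with VLX-1005, and alpha cell markers to 157 to 213 CPM and 104 to 236 CPM. Endothelial markers summed to 0.914 to 9.18 CPM and 3.89 to 7.48 CPM. T cell markers summed to 271 to 345 CPM with vehicle and 195 to 255 CPM with VLX-1005, without overlap, but nearly all of that was Foxp3, whose exons lie opposite Ccdc22. B cell markers summed to 0 to 1.67 CPM and 2.72 to 5.44 CPM, also without overlap, with the defining gene Ms4a1 at 0. The part of these markers in the channel gene values was not tested.

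By the shape of their profile over the 7 libraries, no channel gene was among the 3 nearest genes of another. Likeness was measured as the root-mean-square difference of log2 CPM deviations from the own mean of each gene, so that a smaller value is a closer profile. Nearest to Kcnj11 were Zmat5 at 0.05, Slc3a1, an amino acid transporter subunit, at 0.05, and Hopxos at 0.08. The median of this distance over all genes tested was 0.37, and Abcc8 was at 0.27 from Kcnj11 and Trpm5 at 0.22. All 3 of those nearest genes have an exon opposite another gene, namely Cabp7, Prepl and Hopx. Such an exon was carried by 81.0% of all genes tested. Nearest to Abcc8 were Idua, a lysosomal enzyme, at 0.13, Arhgef17, a guanine nucleotide exchange factor, at 0.15, and Plk-ps1 at 0.16, against a median of 0.51, with Trpm5 at 0.44. Nearest to Trpm5 were Gmppb at 0.06, Endog, a mitochondrial nuclease, at 0.06, and Pradc1 at 0.08, against a median of 0.36. Of the genes nearest to Abcc8 and Trpm5, Idua, Gmppb, Endog and Pradc1 have an exon opposite another gene, and Arhgef17 and Plk-ps1 have none. The libraries share depth and scaling in these profiles, and genes that vary little are close to each other by this measure.

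**Figure D4:**
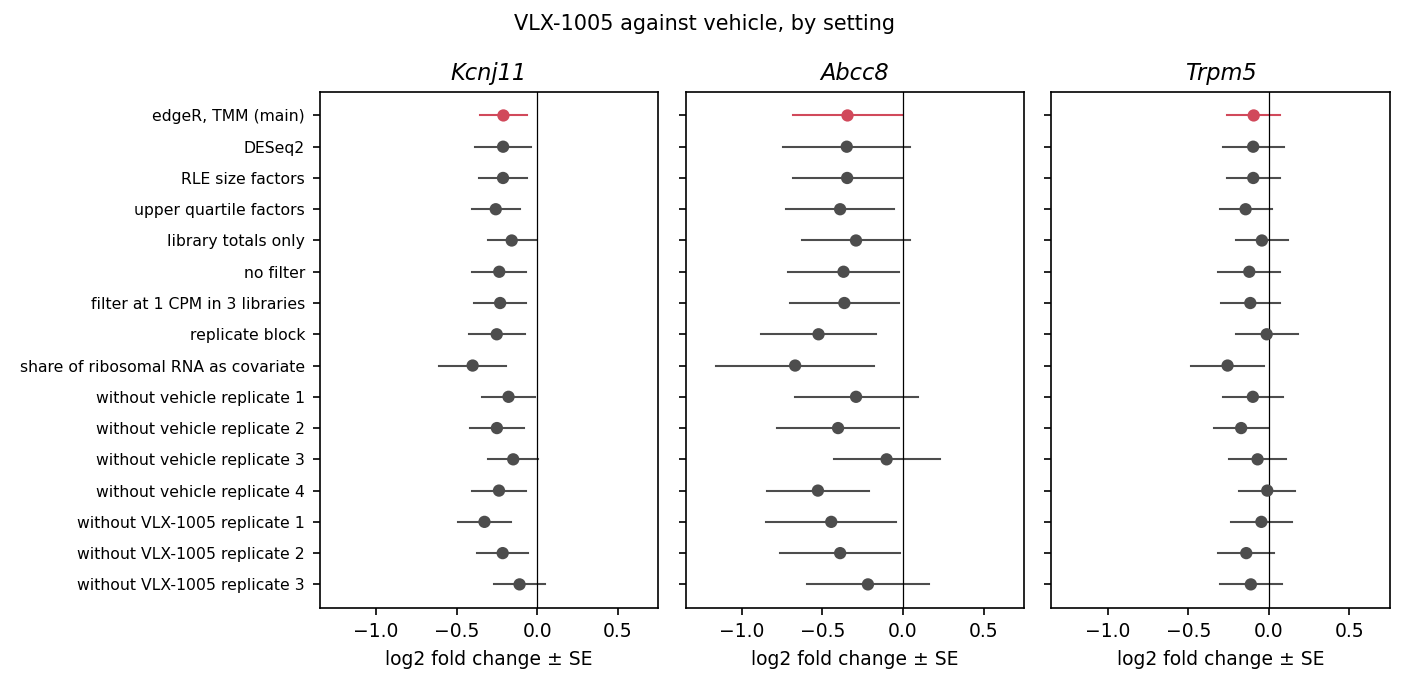
Log2 fold change ± SE of VLX-1005 against vehicle for Kcnj11, Abcc8 and Trpm5 under the reported fit and 15 other settings, with a line at 0. Every point lies below 0, from -0.40 to -0.11 for Kcnj11, -0.67 to -0.10 for Abcc8 and -0.26 to -0.01 for Trpm5.

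Of the 134 genes in 7 lists around the channel, 22 passed the low-count filter and none passed the edgeR test, against 2.37% of all genes tested. An unadjusted p under 0.05 was found for 1 of them, Pkd2, where 18.0% of all genes tested had one. The pore and receptor relatives of the K-ATP channel were the least covered list, with 1 of 21 genes tested and 5 at 0 in every library. The tested one was Abcc9, the SUR2 receptor of muscle and vessel channels, opposite 5330439B14Rik, with a log2 difference of -0.01 ± 0.43 whose sign turned in 6 of 15 settings. Among genes of glucose entry and early metabolism, 4 of 20 were tested, 2 on either side of 0, with a median of -0.21. Pdha1, a subunit of pyruvate dehydrogenase, was at 618, 698, 861 and 703 CPM with vehicle and 681, 361 and 562 CPM with VLX-1005. Its log2 difference was -0.42 ± 0.19 (adjusted p = 0.279, edgeR), and its exons lie opposite Map3k15. Gpd2, the mitochondrial glycerol phosphate dehydrogenase, was at 0.71 ± 0.43, and Pfkm, a phosphofructokinase, at -0.50 ± 0.35, both log2 differences. Gpd2 has an exon opposite A930012O16Rik, and Pfkm has an exon opposite Senp1.

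Downstream of the channel, 5 of 15 voltage-gated calcium channel subunits were tested, 2 above and 3 below 0, with a median of -0.06. Cacnb4, a beta subunit, was the one tested gene of the 7 lists whose groups did not overlap in either direction. Of all genes tested, 17.8% had groups that did not overlap, and 8.32% lay entirely lower with VLX-1005. Cacnb4 was at 69.2, 75.5, 69.5 and 69.5 CPM with vehicle and 57.8, 48.5 and 55.97 CPM with VLX-1005. Its log2 difference was -0.38 ± 0.18 (adjusted p = 0.296, edgeR), and its exons lie opposite A430018G15Rik. Cacna1g, a T-type pore, was at -0.43 ± 0.38, and Cacna1d, the L-type pore Cav1.3 of beta cells, at 0.45 ± 0.45. Cacna1d has an exon opposite Chdh. Of the other potassium channels 3 of 20 were tested. Among them were Kcnn2, a channel that calcium opens, at -0.34 ± 0.29, and Kcnmb1, an auxiliary subunit, at 0.04 ± 0.46. Both values are log2 differences, and Kcnn2 has an exon opposite AC121957.1.

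In the family of Trpm5, 2 of 23 TRP channel genes were tested and 8 were at 0 in every library. Pkd2, the cation channel polycystin-2, was at 8.34, 4.62, 4.57 and 6.25 CPM with vehicle and 6.12, 26.6 and 13.99 CPM with VLX-1005. VLX-1005 replicate 1 lay within the vehicle range, and the log2 difference of 1.34 ± 0.52 had an unadjusted p of 0.0225 and an adjusted p of 0.198 in edgeR. The Pkd2 difference was 0.73 without VLX-1005 replicate 2, its highest library, and 0.56 with the ribosomal RNA share as covariate (adjusted p 0.0863 to 0.952 over 14 alternatives). Mcoln1, a lysosomal channel, was at -0.23 ± 0.33. Sodium, chloride and other depolarising channels gave 3 of 13 genes tested, with Scn8a, a sodium channel pore, at -0.71 ± 0.44, P2rx4 at 0.30 ± 0.45 and P2rx3 at -0.07 ± 0.15, the latter 2 being ATP-gated channels. P2rx3 has an exon opposite Ssrp1. For granule exocytosis 4 of 22 genes were tested, with a median of 0.05, among them Cplx2, a complexin, at 0.41 ± 0.32. Unc13a, a priming factor opposite Colgalt1, was at 0.14 ± 0.15, and Rab3a, a granule GTPase opposite Mpv17l2, at -0.33 ± 0.38.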

How the data were processed

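For each of 7 islet libraries the authors deposited raw read counts by Ensembl gene, not normalized. Reads were trimmed with Trimmomatic and checked with FastQC, aligned with HISAT2 to mm10 and counted with HTSeq, according to the study's methods and the submitters' processing notes. For strand setting, annotation release and tool versions, nothing is given in the sources used here. IDs were matched to GENCODE release M21 (mm10), which placed 48058 genes and left 382 without a position. Overlaps of exons on opposite strands came from bedtools 2.31.1.

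VLX-1005 was compared with vehicle in R 4.3.3 by edgeR 4.0.16 (glmQLFTest) after TMM scaling and filterByExpr, with robust dispersion and no covariate. The quasi-likelihood test is two-sided, with Benjamini-Hochberg adjustment over 4218 genes and a threshold of 0.05. Ratios of counts were compared by exact permutation over 35 splits. Alternatives were DESeq2 1.42.0, other scaling and filters, the replicate number as a block, ribosomal RNA share as covariate, and leaving out each library.

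Genes named were the 3 channel genes, genes with exons opposite theirs, the nearest gene on each side and strand, up to 3 tested genes of smallest p per pathway list, the 3 nearest profiles of each channel gene, and Ins2, Gcg and Actb. Ins1, Ms4a1, Pou2f3, Dclk1, Tas1r3, Csf1r and Foxp3 are markers, named for their lists after their values were seen. Some genes under this rule are not reported here. Members and lists were chosen with earlier results of these data known. Protein sequences and the promoters of the K-ATP genes were not used here.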

Additional observations from a re-analysis of the deposited data

Results flagged for a closer look

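In 6 of 55 groups of 4 vehicle libraries, 1 library stood apart from the others by its gap over the whole range of the group (above the 95% critical value of Dixon). Chance alone gives about 1 in 20 such groups. None of the 3 channel genes and neither count ratio was among them. Cd81, beside Trpm5, had a gap ratio of 0.849, with vehicle replicate 3 at 32 CPM and the others at 10.02 to 13.3 CPM. Cacnb4 had a gap ratio of 0.951, with replicate 2 at 75.5 CPM and the others at 69.2 to 69.5 CPM. P2rx3 had a gap ratio of 0.884, with replicate 4 at 170.3 CPM and the others at 193 to 197 CPM. Cplx2 had a gap ratio of 0.830, with replicate 3 at 18.3 CPM and the others at 12.3 to 13.3 CPM. For the summed tuft cell markers the gap ratio was 0.859, with replicate 4 at 32.8 CPM and the others at 23.4 to 24.7 CPM. For the summed T cell markers it was 0.851, with replicate 3 at 345 CPM and the others at 271 to 282 CPM. Without vehicle replicate 3 the log2 difference of Trpm5 and of the other channel genes stayed below 0, and that of Cd81 was 0.46.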

How the results depend on the processing

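Each of the 3 channel genes kept a difference below 0 and no call in all 15 alternatives. Kcnj11 ranged from -0.40, with ribosomal RNA share as covariate, to -0.11 (adjusted p 0.316 to 0.804). The ribosomal RNA share did not overlap between the groups, so fits with this covariate cannot fully tell it and treatment apart. Abcc8 ranged from -0.67 to -0.10 (0.468 to 0.915) and Trpm5 from -0.26 to -0.01 (0.658 to 0.986). The Kcnj11 to Abcc8 ratio difference ranged from -0.087 to 0.26 and the Trpm5 to Tssc4 one from -0.13 to 0.20 when 1 library was left out, each turning sign without vehicle replicate 3.

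Genes called over the whole table numbered 197 with DESeq2, 263 with no filter, 164 with a filter at 1 CPM, 0 with the ribosomal RNA covariate (260 at an unadjusted p under 0.05), and 14 to 203 without 1 library. With the replicate number as a block 19 were called, and Kcnj11 was at -0.25, Abcc8 at -0.52 and Trpm5 at -0.01. Same-numbered libraries correlated at -0.03, -0.02 and 0.09, so the numbers were not shown to pair them.

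Of the 33 other tested genes named, 8 changed sign in some alternative and none was called in any. Under the block Abcc9 was at 0.41, Kcnmb1 at -0.11 and Endog at 0.019. With the ribosomal RNA covariate Abcc9 was at 0.51, Mcoln1 at 0.31, P2rx3 at 0.13 and Cplx2 at -0.11. With library totals only Cd81 was at 0.030 and Abcc9 at 0.039. Without 1 library Tssc4 ranged from -0.36 to 0.056, Cd81 from -0.20 to 0.46, Abcc9 from -0.33 to 0.39, Kcnmb1 from -0.13 to 0.31, Mcoln1 from -0.46 to 0.038, P2rx3 from -0.20 to 0.0018 and Endog from -0.12 to 0.039. The cause was not tested. Depth was 20 to 44 counts per library for Abcc8, where the coefficient of variation between vehicle libraries was 38.4%, against 17.5% from counting alone.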
